A study of Mus musculus with 2 samples.

Results

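The genes described are 37 genes of mitosis and cytokinesis, taken by their symbols from a table of 32285 genes and followed by cell class in 2 single-cell libraries of mouse liver. All 37 were detected in both libraries, with at least 62 UMIs per gene in the library labelled E18.5 and at least 957 in that labelled P180. A UMI (unique molecular identifier) marks 1 captured RNA molecule. Together these genes gave 534 CPM (counts for every 1000000 UMIs) in the cells kept under the E18.5 label and 3621 under the P180 label. With haemoglobin left out of the total, the summed level was highest in erythroid-like cells of the library labelled P180, at 10063 CPM. In CPM of all UMIs it was 3650 there, below B cell-like and monocyte-like cells. Within those erythroid-like cells, with haemoglobin left out, it peaked where haemoglobin took 50 to 60% of a cell's UMIs. At 80% and above every member except Ube2c and Nusap1 stood lower than at 50 to 60% on that scale. In CPM of all UMIs the summed level peaked at 10 to 20% instead.

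During mitosis cyclin B and the kinase Cdk1 drive chromosome condensation and spindle assembly, helped by the Aurora and Polo kinases. Kinetochores, built on centromeres, tie each chromosome to the spindle, and the spindle checkpoint holds back the anaphase-promoting complex until all are attached. That complex then marks cyclins and other proteins for destruction, and the midzone and contractile ring split the cell. Most of these genes are transcribed late in the cell cycle and their RNAs are largely lost after division. In the liver, red cell precursors divide in large numbers before birth, when the organ is the main site of blood formation. Erythroblasts go on dividing while haemoglobin accumulates and leave the cycle before they lose their nucleus. Hepatocytes divide rarely in the adult organ and often become polyploid.

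Both livers came from mice that lacked Hhex, a gene needed for liver bud growth, and whose blastocysts had been injected with tetraploid (4N) embryonic stem cells that carry tdTomato, a red fluorescent protein. The labels give n = 1 for each age: E18.5, in embryonic days, and P180, in days after birth. They name the types of cells present, and how many of them carry tdTomato, as the purpose. No diploid control and no replicate is among the samples, so values differ between 2 animals and between 2 ages at once, and no test between libraries was possible. The gene table holds 0 tdTomato features, so donor and host cells were not told apart here, and host cells may be present in any class. RNA was captured from dissociated cells in droplets and read from its 3′ end (10x Chromium 3′ v3), which gives 1 UMI per molecule whatever the transcript's length.

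Library makeup went against the labels and bears on every comparison between them. Of 4543 cells kept with the E18.5 label, 59 were erythroid-like and 111 plasma cell-like, and B cell-like cells (1298) were the most numerous class. Of 8847 kept with the P180 label, 6913 were erythroid-like. Jchain, the joining chain of secreted antibodies, stood at 2111 CPM under the E18.5 label and at 0.0609 under the P180 label. Lin28b, an RNA-binding protein of fetal blood precursors, stood at 0.104 and 9.39, and the fetal transcript H19 at 3.39 and 12.1. The embryonic globin Hbb-y had 0 UMIs under the E18.5 label but reached 1.29 CPM with the P180 label. Hhex itself was detected in both, at 99.1 CPM (2866 UMIs) and 42.7 CPM (3505 UMIs). The deleted part of the gene (not given in the sources used here) may lie outside the counted 3′ end, so this level checks nothing. Why the makeup differs from what the ages would give was not tested, and each library is called by its label. Alb, the main hepatocyte transcript, stood at only 431 and 11.3 CPM, and no cluster was hepatocyte-like in either library. The libraries held 37709972 and 90128038 UMIs over 9871 and 9771 barcodes, and shared 28 barcodes. The kept cells had medians of 4726 and 5905 UMIs, of which haemoglobin took 1.13% and 35% of the total.

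Unless another scale is named, a level below is in CPM of non-haemoglobin UMIs (a gene's UMIs in all cells of a group, for every 1000000 non-haemoglobin UMIs there), with an exact Poisson 95% interval that covers counting error only. Haemoglobin (10 genes) was left out of the total because it alone takes most UMIs of a maturing red cell. Levels of different genes are shares of captured molecules and are not scaled to length. At least 2-fold higher or lower is the only call made, and with 1 library per label no call has a p-value.

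Many genes of late mitosis share 2 short promoter elements, the cell cycle genes homology region, searched as TTTGAA, and the CCAAT box, searched as CCAAT. Of the 37 members, 32 had an entry among the RefSeq promoters (GRCm38.p6, 250 bases before to 50 after the listed start). Ccna2, Aurkb, Incenp, Tpx2 and Kif20a had none. On either strand, TTTGAA was present in 24 of 32 (75%) against 18.1% of 27025 promoters, and CCAAT in 24 (75%) against 37.9%. Both were present in 21 (65.6%) against 7.12%. The motifs can overlap by at most 1 base. Among the other lists of cell cycle genes, TTTGAA was found in 55.6% of 54 promoters of other mitosis genes, in 13.6% of 22 of DNA replication genes and in 0 of 9 of cell cycle exit genes. The 4 members with the most UMIs that hold TTTGAA are shown, since these letters are what most of the members with an entry share. Each line gives 120 bases before to 30 after the start, on the gene's own strand and 5′ to 3′, and capitals mark TTTGAA or its reverse complement TTCAAA and CCAAT or its reverse complement ATTGG.
Mki67: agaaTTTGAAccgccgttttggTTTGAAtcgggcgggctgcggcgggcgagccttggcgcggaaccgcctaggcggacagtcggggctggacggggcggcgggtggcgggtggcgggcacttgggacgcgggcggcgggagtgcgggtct
Ube2c: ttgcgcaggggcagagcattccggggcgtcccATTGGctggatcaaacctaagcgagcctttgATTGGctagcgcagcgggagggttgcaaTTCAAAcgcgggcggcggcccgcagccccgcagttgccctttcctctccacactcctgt
Top2a: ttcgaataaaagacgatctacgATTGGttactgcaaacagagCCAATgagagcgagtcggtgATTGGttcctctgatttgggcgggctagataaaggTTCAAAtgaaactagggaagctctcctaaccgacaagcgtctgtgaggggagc
Cenpa: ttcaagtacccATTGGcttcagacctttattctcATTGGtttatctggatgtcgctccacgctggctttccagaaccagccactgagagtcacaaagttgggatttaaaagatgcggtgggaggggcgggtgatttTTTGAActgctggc
Mki67 lies on the minus strand at chr7:135716350-135716499, Ube2c on the plus strand at chr2:164769809-164769958, Top2a on the minus strand at chr11:99024160-99024309, and Cenpa on the plus strand at chr5:30666766-30666915. The printed stretch of Mki67 holds TTTGAA 2 times and no CCAAT, that of Top2a holds CCAAT 3 times, and those of Ube2c and Cenpa hold CCAAT 2 times each. Nusap1, Birc5, Knstrn, Mad2l1 and Nuf2 held neither motif in the full window. A match describes letters in a window and is no evidence of binding.

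In the library labelled P180 the members were found in every class, and erythroid-like cells held 53.9% of their UMIs, close to the 53.5% of all kept UMIs that these cells held. The summed level was 10063 in erythroid-like cells (10014 to 10113, 6913 cells), 4300 in B cell-like (4216 to 4386, 201 cells), 4215 in monocyte-like (4163 to 4266, 222 cells) and 3573 in neutrophil-like cells (3547 to 3599, 1067 cells). Of the named classes with at least 50 cells, endothelial-like cells followed at 2066 (1952 to 2184, 110 cells), where 1 cell gave 55.9% of the UMIs, and dendritic-like cells at 1798 (1735 to 1862, 74 cells). Outside this ranking, unnamed cells (171) stood at 4193. The small NK cell-like (17 cells), mast cell-like or basophil-like (29) and mesenchymal-like classes (43) stood at 3328, 2580 and 2200. The intervals of the erythroid-like class and of the next class did not overlap, while those of B cell-like and monocyte-like cells did. The order depends on scale. In CPM of all UMIs, haemoglobin included, B cell-like cells stood at 4168, monocyte-like at 4160, erythroid-like at 3650 and neutrophil-like at 3515, so erythroid-like cells were no longer highest.

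Among the named classes with at least 50 cells, 27 of the 37 members had their highest level in erythroid-like cells on the scale without haemoglobin. Only Mki67, Cenpf, Ube2c and Nusap1 had it there in CPM of all UMIs. On that second scale 18 were highest in monocyte-like and 9 in B cell-like cells. For neither scale is the share of all genes highest in each class given here. The levels that follow leave haemoglobin out. Aurkb, Mad2l1, Knstrn, Kif20a and Racgap1 were then highest in monocyte-like cells, Bub1b, Ndc80 and Cdc20 in B cell-like, Ttk in endothelial-like and Cdk1 in neutrophil-like cells. Mki67, whose protein Ki-67 coats mitotic chromosomes, stood at 1634 (1614 to 1654) in erythroid-like, 283 in B cell-like, 221 in monocyte-like and 201 in neutrophil-like cells. Ube2c, the ubiquitin-conjugating enzyme of the anaphase-promoting complex, stood at 1469 (1450 to 1488), 394, 327 and 318 in the same classes. Both thus stood apart in erythroid-like cells by more than their intervals. Top2a, the topoisomerase that untangles replicated DNA, was closer between lineages, with 518 in erythroid-like, 412 in B cell-like and 229 in neutrophil-like cells. Cdk1 stood at 159 in erythroid-like, 165 in B cell-like and 181 in neutrophil-like cells, a narrow range beside that of the cyclins. Aurkb, the kinase of the chromosomal passenger complex, had 85.1 in monocyte-like, 60.9 in neutrophil-like and 57 in erythroid-like cells. The highest level of Ttk, a checkpoint kinase, rests on 15 UMIs in endothelial-like cells (25.1, against 21 in erythroid-like).

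**Figure D1:**
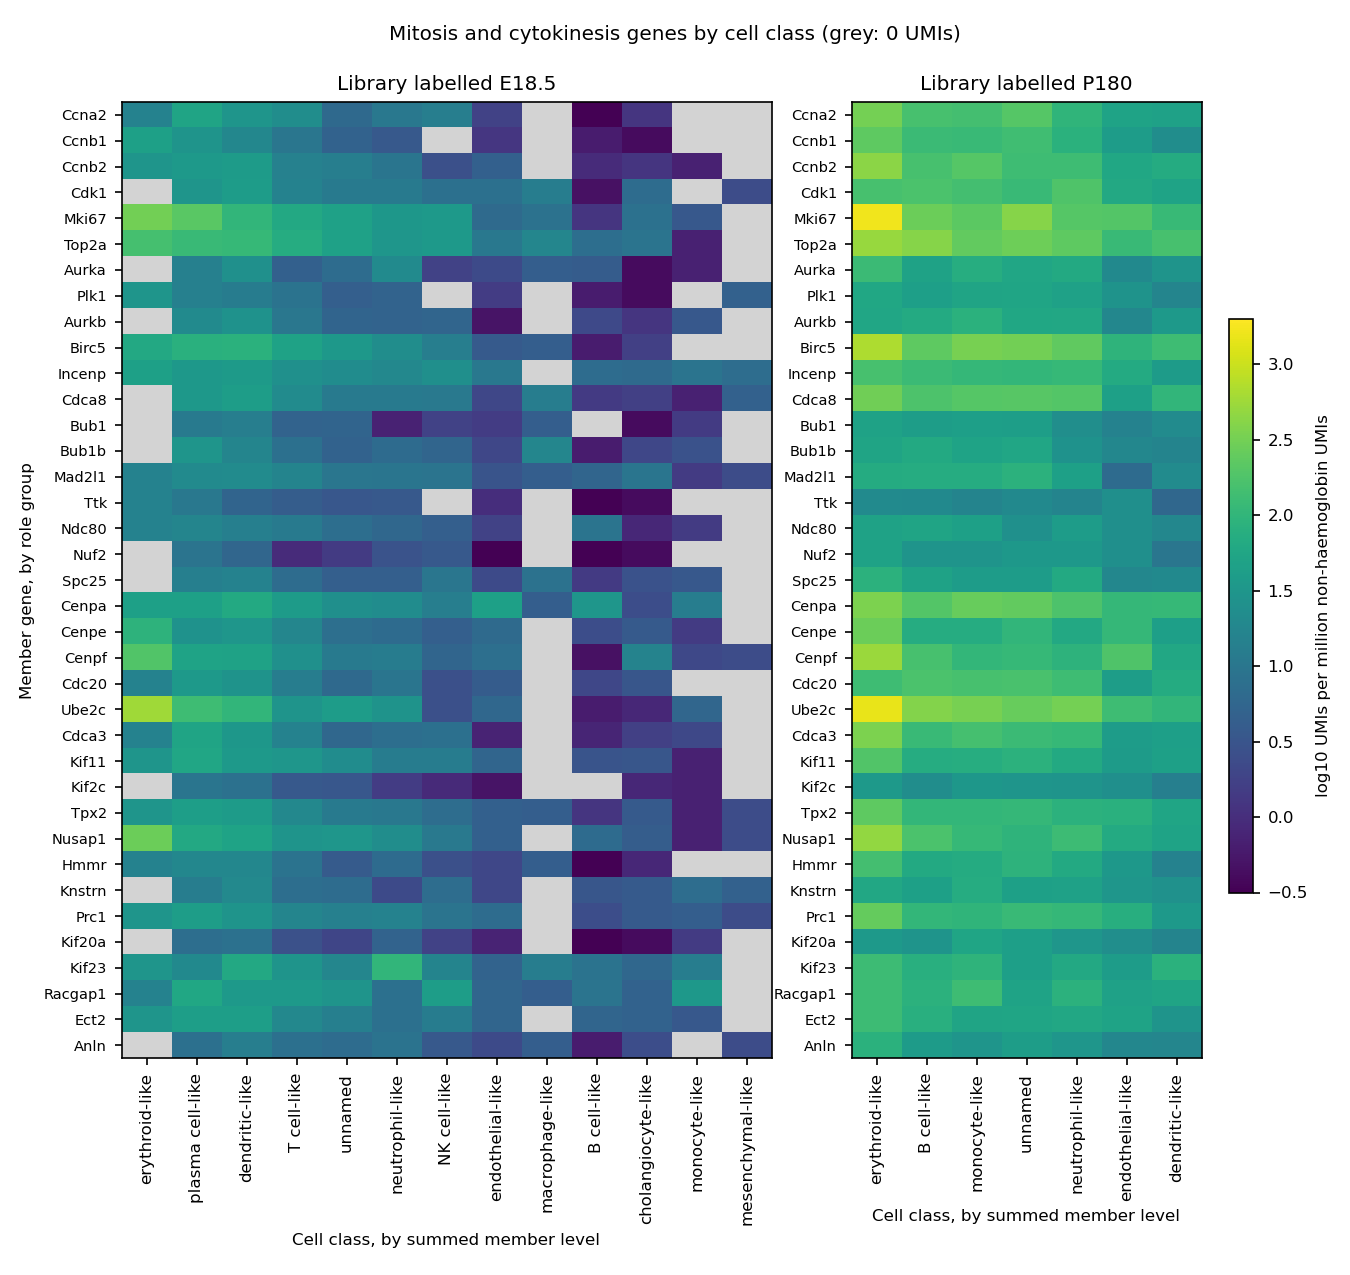
Level of each member (rows, ordered by role) in each cell class (columns) of both libraries, as log10 of CPM of non-haemoglobin UMIs, with grey for 0 UMIs. Among named classes of at least 50 cells labelled P180, the erythroid-like column holds the highest level of 27 of 37 members on this scale. In CPM of all UMIs it holds that of 4. In B cell-like and monocyte-like cells all 37 are higher under the P180 label than under the E18.5 label.

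In the library labelled E18.5 the members were low in most classes. The summed level was 1514 (1460 to 1569) in 111 plasma cell-like cells and 1325 (1293 to 1357) in 337 dendritic-like cells, which gave 19.5% and 42.7% of all member UMIs. T cell-like cells stood at 719 (684 to 756), neutrophil-like at 507 (469 to 546), B cell-like at 123 (114 to 131), monocyte-like at 120 and mesenchymal-like at 38.7 (22.1 to 62.8). The 59 erythroid-like cells had a summed level of 2122 (1784 to 2506) from 139 UMIs, of which 1 cell gave 46%. In CPM of all UMIs they stood at 541, below plasma cell-like (1510) and dendritic-like cells (1322). NK cell-like cells (348) and neutrophil-like cells also rest in part on 1 cell, with 35.5% and 28.5% of their member UMIs. With haemoglobin left out, plasma cell-like and dendritic-like cells each held the highest level of 13 members, erythroid-like cells of 10 and neutrophil-like cells of 1, Kif23. The share of all genes highest in each class is not given here.

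Mki67 in this library stood at 215 (195 to 236) in plasma cell-like, 100 in dendritic-like and 1.23 in B cell-like cells. Its level of 305 in erythroid-like cells rests on 20 UMIs, 14 of them in 1 cell. Top2a was similar in plasma cell-like (121) and dendritic-like cells (113), as was Birc5, the survivin subunit of the chromosomal passenger complex, at 82.4 and 83.8. Cenpa, the histone variant that marks centromeres, was the exception in B cell-like cells: it stood at 31 with UMIs in 163 of 1298 cells, against 0.617 for Ube2c. In endothelial-like cells Cenpa stood at 45.3, with UMIs in 142 of 1023 cells, while Mki67 stood at 6.58. Racgap1, a subunit of the centralspindlin complex of the midzone, likewise reached 33.5 in monocyte-like and 41.4 in NK cell-like cells, where Ube2c stood at 5.71 and 2.7. In each of these 4 classes the named gene gave more UMIs than any other member.

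The share of cells that hold several members at once was taken after thinning each cell to 1000 non-haemoglobin UMIs, since deeper cells show more genes. A cell with UMIs of at least 3 members was counted, which is a range of a score and not a cell type. Of 7287 cells deep enough with the P180 label 50% were counted (48.8 to 51.1, exact binomial), and of 4464 with the E18.5 label 1.81% (1.44 to 2.25). Under the P180 label the share was 54.6% in erythroid-like (53.3 to 56, 5398 cells), 52.3% in monocyte-like (45.5 to 59, 222 cells), 37% in neutrophil-like (34.1 to 40, 1056 cells) and 22.7% in B cell-like cells (17.1 to 29.2, 198 cells). Dendritic-like cells had 21.6% (12.9 to 32.7) and endothelial-like cells 9.26% (4.53 to 16.4). Erythroid-like and monocyte-like cells thus had overlapping intervals, although their summed levels differed by more than 2-fold. Without thinning these shares were 62, 95, 64.5, 43.8, 66.2 and 18.2%, at median non-haemoglobin UMIs from 1469 in erythroid-like to 24426 in monocyte-like cells. Thinning left out 1515 of 6913 erythroid-like cells, and 1133 of the remaining lie 1 member below the limit and 667 at it. Unnamed cells labelled P180 had a thinned share of 59% (50.5 to 67.1, 144 cells). Its interval overlaps those of erythroid-like and monocyte-like cells.

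Under the E18.5 label plasma cell-like cells had the largest share among classes with over 100 cells, 13.5% (7.77 to 21.3, 15 of 111), followed by dendritic-like cells with 8.96% (6.12 to 12.5, 30 of 335). Erythroid-like cells had 3 of 26 (11.5%, 2.45 to 30.2). T cell-like cells had 2.43%, neutrophil-like 1.26% and endothelial-like 0.806%. In this draw of UMIs 0 of 1295 B cell-like cells were counted, which allows a share of up to 0.232% by 3 counts and 0.284% by the exact upper bound. In a separate draw for single clusters, 1 of 611 cells of a B cell-like cluster was counted. No monocyte-like cell of 167 or mesenchymal-like cell of 92 was counted in the draw by class. The unthinned shares were 36% in plasma cell-like, 31.8% in dendritic-like and 1.85% in B cell-like cells.

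**Figure D2:**
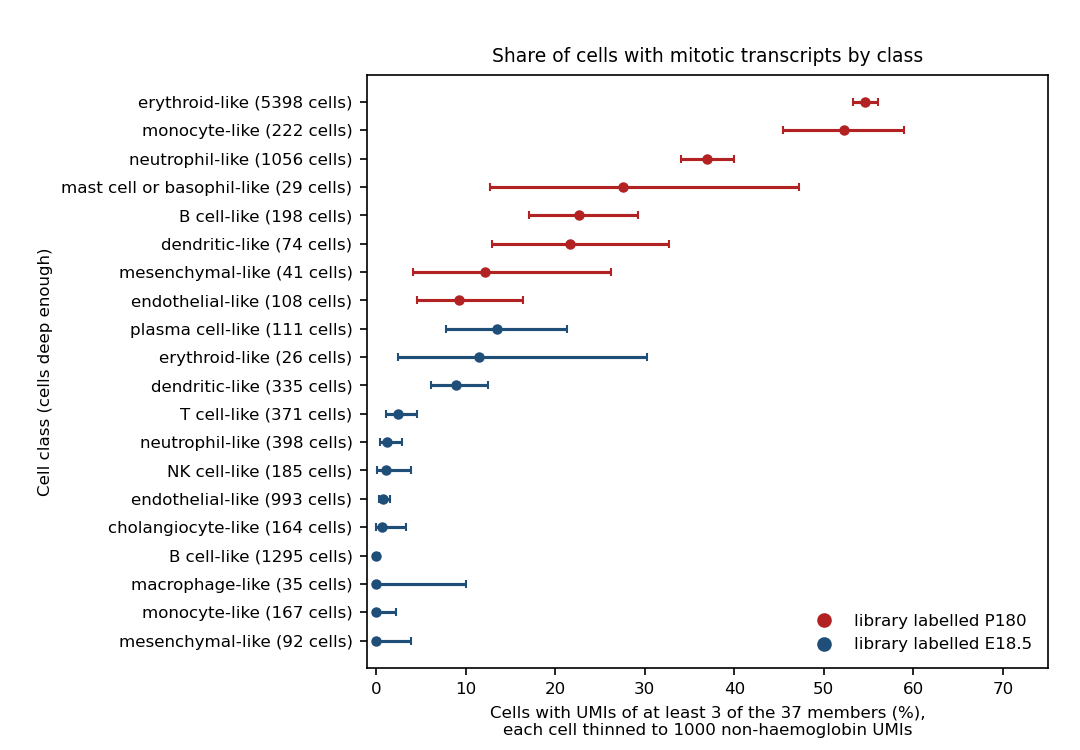
Percent of cells with UMIs of at least 3 of the 37 members after thinning to 1000 non-haemoglobin UMIs, by class and library, with exact binomial 95% intervals, for named classes with at least 25 cells deep enough. Unnamed cells are not drawn. Under the P180 label erythroid-like (54.6%) and monocyte-like cells (52.3%) are highest of those drawn, while unnamed cells had 59%. Under the E18.5 label no class passes 13.5%.

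Clusters within a class also differed from each other. The clusters were made with the members and the other cell cycle lists left out, so that these genes did not define them. Among neutrophil-like cells labelled P180, a cluster led by Elane, Prtn3 and Mpo (granule genes of promyelocytes) stood at 3686 with 57.2% of thinned cells counted. That led by Ngp and S100a8 stood at 5020 with 67.1%, one led by Ngp and Stfa3 at 1544 with 13.9%, and that led by Retnlg, a gene of mature neutrophils, at 551 with 1.83% (0.379 to 5.25). Mature neutrophils do not divide, so shares in the last cluster are given beside others for comparison. In it 1 cell gave 33.2% of the member UMIs and 8 cells gave 81%, so these UMIs were not spread evenly, and their source was not tested. Ube2c followed this order, with 340, 435, 141 and 76.9 in the 4 clusters. Top2a stood at 208, 364, 54.8 and 16.3, and Cdk1 at 222, 257, 38.4 and 15.5. Among these 4 clusters all 3 genes were highest in the Ngp and S100a8 cluster and lowest in the Retnlg cluster. Another neutrophil-like cluster, of 20 cells led by Ltf, stood at 4875 (4185 to 5646). Of its 13 cells deep enough, 9 were counted (69.2%, 38.6 to 90.9).

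B cell-like cells labelled P180 split likewise. A cluster led by Ebf1, Ighm and Vpreb3, with the B precursor genes Igll1 and Vpreb1 among its markers, stood at 5287 with 36.2% of cells counted. The other B cell-like cluster stood at 1874 with 5.63%, and 1 cell gave 51.2% of its member UMIs. In the library labelled E18.5 the dendritic-like cluster with Xcr1 and Clec9a among its markers, genes of conventional type 1 dendritic cells, stood at 1533 with 14.1% counted, and that with Cd209a at 897 with 5.33%. A T cell-like cluster led by Skap1 and S100a4 stood at 1162 with 4.28%. Of 20 neutrophil-like cells led by Camp and Ngp, 5 were counted (25%, 8.66 to 49.1), with a summed level of 2070, and 1 cell gave 40.5% of their member UMIs.

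Among erythroid-like clusters labelled P180, 1 cluster of 444 cells led by Hemgn, Rhd and Sptb stood far above the rest. Its summed level was 35998, all 361 cells deep enough were counted, and haemoglobin took 50.6% of its UMIs. It held the highest level of 36 of 37 members, and the share of all genes highest there is not given here. The exception was Ccnb2, a cyclin B partner of Cdk1, with 905 in a cluster of 310 cells against 759. That cluster had a summed level of 16851, and a cluster led by Mgst3 and Rrm2 had 10562 at 32.9% haemoglobin. The largest cluster, of 1223 cells at 80.6% haemoglobin, stood at 3710.

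Haemoglobin share orders erythroid-like cells by how much haemoglobin RNA they hold, and so roughly by maturity. Of the 6913 cells, 168 had under 10%, 1712 had 10 to 50% and 5033 had at least 50% of UMIs from haemoglobin. The summed member level was 9298 (9096 to 9504), 12889 and 8592 in these ranges. From under 10% to 10 to 50%, 32 of 37 members had a ratio above 1, but only Ube2c and Cdca3 were at least 2-fold higher and none at least 2-fold lower, against 8.72% of 6309 genes higher and 9.75% lower. The 2 became 12 without a limit on mitochondrial UMIs and 22 with all barcodes kept. The median log2 ratio of the members was 0.38, against -0.14 for all genes. From 10 to 50% to at least 50%, 19 of 37 members were at least 2-fold lower and 1, Ube2c, at least 2-fold higher, against 38.2% and 7.72% of 9124 genes. The 19 became 4 when scaled by median of ratios, and the 1 became 0 without a limit on mitochondrial UMIs or with no doublets left out. The median log2 ratio was -1.01 against -0.68 for all genes. The members' shift between these ranges was thus in the same direction as that of the median gene and somewhat larger.

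These directions hold on the scale of non-haemoglobin UMIs. In CPM of all UMIs the median gene moves by a further -0.52 on the log2 scale in the first comparison and by -1.21 in the second. Then 1 member was at least 2-fold higher in the first comparison and 12 of 37 had a ratio above 1. In the second, 36 were at least 2-fold lower and 0 higher. Per cell, 0 were higher and 1 lower in the first, and 0 higher and 33 lower in the second. For these 2 scales the share of all genes past 2-fold is not given here. In the second comparison the median gene, already at -0.68, moves further down on both. These counts therefore do not set the members apart from other genes. Other measures moved with haemoglobin share. The ribosomal protein share of non-haemoglobin UMIs was 18.1, 11.8 and 4.13%, that of the nuclear RNA Malat1 0.75, 1.32 and 2.4%, and median non-haemoglobin UMIs 1174.5, 1403.5 and 1485. With ribosomal, mitochondrial and Malat1 UMIs also left out of the total, 0 members rather than 1 were at least 2-fold higher in the second comparison, and the log2 ratio of Nusap1 was -0.01. The part of depth in the results was not tested.

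None of the cyclins and Cdk1 passed 2-fold between the lower ranges, and 2 of the 4 were at least 2-fold lower in the top range. Ccna2, cyclin A2 of replication and mitotic entry, stood at 349 under 10%, 469 at 10 to 50% and 233 at 50% and above. Ccnb2 stood at 278 (244 to 315), 519 (500 to 539) and 400 (388 to 413), Ccnb1 at 205, 276 and 207, and Cdk1 at 145, 245 and 113. From the middle to the top range the log2 ratio ran from -1.12 for Cdk1 to -0.37 for Ccnb2. Cdk1 and Ccna2 were at least 2-fold lower, and the 2 B-type cyclins were not. The higher level at 10 to 50% than under 10% depends on scale for Ccna2 and Ccnb1, whose log2 ratios of 0.43 each became -0.10 and -0.09 in CPM of all UMIs and -0.30 and -0.29 per cell. The proliferation markers were both at least 2-fold lower there: Mki67 stood at 1835 (1745 to 1928), 2413 (2371 to 2455) and 1192 (1170 to 1214), and Top2a at 839 (779 to 903), 919 (894 to 946) and 271 (261 to 282). Below 50% haemoglobin these 2 markers differed little, with log2 ratios of 0.39 and 0.13 that turned to -0.13 and -0.39 in CPM of all UMIs.

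Aurka, the Aurora kinase of the spindle poles, stood at 107, 165 and 103 in the 3 ranges, and Plk1, the Polo kinase, at 58.1, 86 and 44.3. Neither passed 2-fold between neighbouring ranges. In the chromosomal passenger complex, which corrects chromosome attachments, Birc5 stood at 630, 958 and 542 and Cdca8, its borealin subunit, at 271, 381 and 252. Their partners Aurkb (80.2, 97.4 and 32.9) and Incenp (233, 243 and 106) were at least 2-fold lower in the top range, with log2 ratios of -1.57 and -1.20. The 4 subunits of 1 complex thus differed in how far they stood below the middle range, from -1.57 to -0.60.

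All 4 spindle checkpoint genes and all 3 Ndc80 complex genes were at least 2-fold lower at 50% and above than at 10 to 50%. The checkpoint kinase Bub1 stood at 87.2, 86 and 25.7, and its partner Bub1b at 77.9, 83.3 and 32.7. Mad2l1, the inhibitor of the anaphase-promoting complex, stood at 97.7, 110 and 43.3, and Ttk at 46.5, 35.4 and 10.9. The log2 ratio ran from -1.74 for Bub1 to -1.34 for Mad2l1. The Ndc80 complex joins kinetochores to microtubules. Its subunits Ndc80 (73.3, 81.5 and 28.3), Nuf2 (74.4, 80.9 and 28.6) and Spc25 (83.7, 133 and 62.5) had log2 ratios from -1.53 to -1.09. None of these 7 genes passed 2-fold between the lower ranges.

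None of the 3 centromere protein members passed 2-fold in this comparison. Cenpf, a large protein of the outer kinetochore, stood at 365 (326 to 408), 572 (552 to 592) and 529 (514 to 543), a log2 ratio of -0.11 (-0.18 to -0.05) for the last step. Cenpa stood at 246, 398 and 351, and Cenpe, a kinetochore motor, at 284, 358 and 239. All 3 lay above the median gene, whose log2 ratio was -0.68.

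Partners of the anaphase-promoting complex spanned the widest range. Ube2c stood at 320 (283 to 360), 925 (899 to 951) and 1866 (1839 to 1893), the only member at least 2-fold higher in both steps, with log2 ratios of 1.53 (1.36 to 1.71) and 1.01 (0.97 to 1.06). On other scales the second step was -0.19 in CPM of all UMIs and 0.33 per cell. Cdca3, which promotes mitotic entry, stood at 216, 480 and 292, with log2 ratios of 1.15 (0.94 to 1.37) and -0.72. Cdc20, the activator that starts anaphase, stood at 183, 180 and 105. The 3 genes thus had 3 different shapes over the same cells.

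Of the spindle motors, Kif11, which pushes the poles apart, stood at 306, 299 and 112, and Kif2c, which shortens microtubules, at 33.7, 51.2 and 25.7. Kif11 was at least 2-fold lower in the top range, and Kif2c, at a log2 ratio of -0.99, was just inside 2-fold. None of the 4 spindle assembly proteins passed 2-fold. Nusap1, which bundles spindle microtubules, stood at 310 (274 to 350), 467 (449 to 486) and 501 (487 to 516), and its last log2 ratio of 0.10 (0.03 to 0.17) turned to -1.10 in CPM of all UMIs and to -0.58 per cell. Tpx2, the activator of Aurka, stood at 233, 300 and 190, Hmmr, a spindle pole protein, at 198, 206 and 108, and Knstrn, a kinetochore and spindle adaptor, at 84.9, 82.6 and 47.

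Of the 6 midzone and cytokinesis genes, 5 were at least 2-fold lower in the top range. Anln, the scaffold of the contractile ring, stood at 123, 151 and 46.3, and Prc1, which bundles midzone microtubules, at 313, 406 and 160. Centralspindlin is made of Kif23 (140, 193 and 89.3) and Racgap1 (152, 203 and 83.9), and it recruits Ect2 (172, 188 and 90.4), which activates the small GTPase RhoA. The midzone motor Kif20a, at 48.8, 51 and 26.5, was the one within 2-fold, with a log2 ratio of -0.94. The median log2 ratio of the 6 genes was -1.19, between those of the spindle checkpoint genes (-1.52) and of the cyclins and Cdk1 (-0.71).

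**Figure D3:**
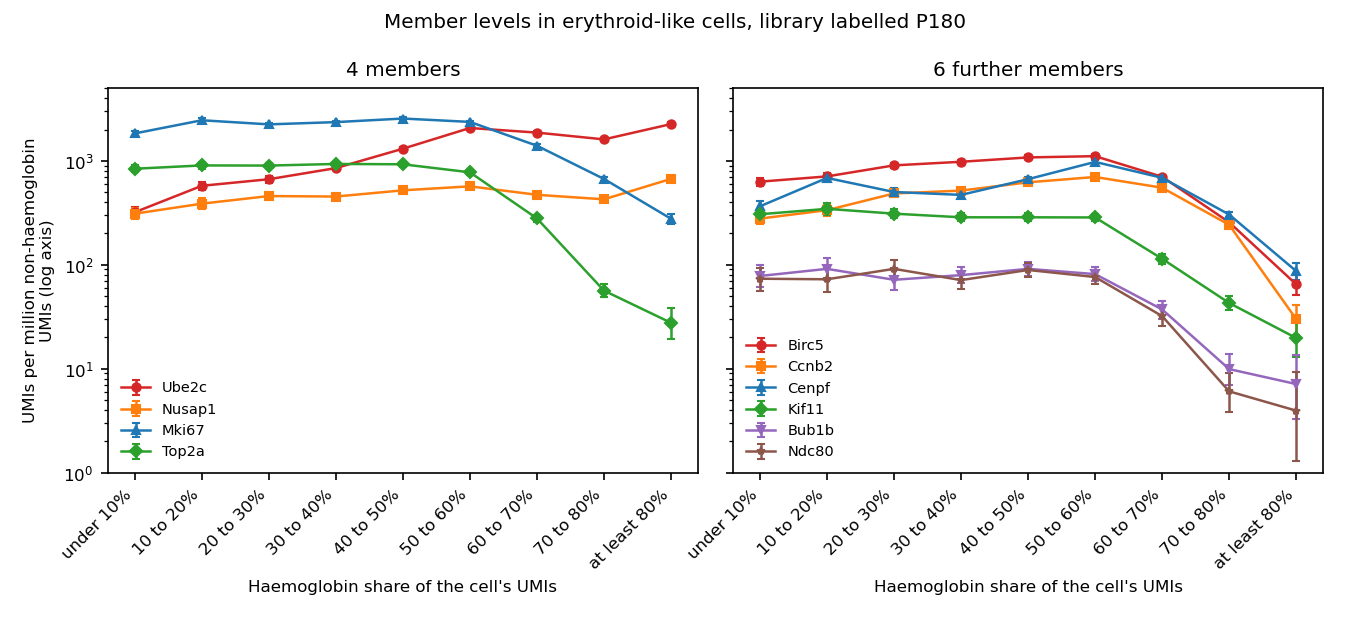
Level of 10 members (log axis, CPM of non-haemoglobin UMIs, bars are exact Poisson 95% intervals) in erythroid-like cells labelled P180 over 9 ranges of haemoglobin share. Ube2c and Nusap1 end at 2257 and 670 in the range of at least 80%, while Top2a ends at 27.6 and Ndc80 at 3.94. On the scale of all UMIs Ube2c and Nusap1 are lower, not higher, at 80% and above than at 50 to 60%.

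The range of at least 50% was not uniform, and finer ranges, chosen after the values had been seen, separated the members further. The summed level was 15554 (15387 to 15722) in 764 cells at 50 to 60%, 10106 in 1241 cells at 60 to 70%, 5014 in 2065 cells at 70 to 80% and 3921 (3813 to 4032) in 963 cells at 80% and above. The place of the peak depends on scale. In CPM of all UMIs the summed level was highest at 10 to 20%, at 10105, against 6963 at 50 to 60%. Per cell it was 47.6 UMIs under 10% and 43.4 at 50 to 60%. With haemoglobin left out, over 9 ranges 16 members peaked at 50 to 60% and 9 at 40 to 50%. A further 7 peaked at 10 to 20%: Incenp, Bub1, Mad2l1, Cenpe, Kif11, Ect2 and Anln. Ndc80 peaked at 20 to 30%, Top2a at 30 to 40% and Ttk under 10%. Both B-type cyclins, Aurka, Plk1, Birc5, Cenpa, Cenpf and Cdc20 were among those that peaked at 50 to 60%. Neighbouring ranges often had overlapping intervals, so the exact peak is less certain for members with few UMIs.

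At 80% and above, 35 of 37 members were at least 2-fold lower than at 50 to 60%, against 54.1% of 6072 genes, and 0 were at least 2-fold higher, against 5.32%. The median log2 ratio of the members was -3.99, against -1.14 for all genes. Cdk1 stood at 283 and 6.31, a 44.9-fold difference, and Ccnb1 at 400 and 10.3, a 39-fold difference. Top2a stood at 775 and 27.6, Birc5 at 1109 and 64.7, Cenpf at 976 and 86.8, and Mki67 at 2369 and 277. The B-type cyclins, Cenpf and Cenpa, which had been near their middle-range level over all cells at 50% and above, were here among the members that stood far lower. Incenp had the smallest difference of the 35, from 217 to 51.3 (log2 ratio -2.08, -2.48 to -1.70). Ttk (1 UMI), Nuf2 (2 UMIs) and Bub1 (3 UMIs) had too few counts at 80% and above for more than wide intervals, -10.78 to -2.94, -8.57 to -3.63 and -6.89 to -3.02. At 80% and above 29 of 37 members stood under 10% of their own peak level, 6 at 10 to 50% and 2 at 50% or more. The same shares over all genes were not computed. A peak is the highest of 9 ranges by definition, which lowers such percentages for any gene.

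The 2 members at 50% or more of their peak level were Ube2c and Nusap1. Ube2c (chr2:164769898-164778822, plus strand, GENCODE vM21) stood at 2070 at 50 to 60%, 1869 at 60 to 70%, 1608 at 70 to 80% and 2257 at 80% and above. Nusap1 (chr2:119618298-119651244, plus strand) stood at 568, 471, 426 and 670 in the same ranges. Their log2 ratios of the last range to the first were 0.12 (0.06 to 0.19) and 0.24 (0.11 to 0.37), which turned to -1.27 and -1.15 in CPM of all UMIs and to -0.96 and -0.85 per cell. Every other member had a lower ratio than these 2. A change of scale moves all members alike and cannot alter this order. At 80% and above Ube2c gave 57.6% of all member UMIs, Nusap1 17.1% and Mki67 7.06%, whereas at 30 to 40% the same genes gave 6.85, 3.64 and 19%.

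The share of thinned cells with a UMI showed the same split. For Ube2c it was 46.9% at 10 to 50%, 55.8% at 50 to 60%, 54.6% at 60 to 70%, 61.8% at 70 to 80% and 71.7% at 80% and above (67.9 to 75.3, 423 of 590 cells). The Retnlg cluster of mature neutrophil-like cells in the same library had 3.66% (1.35 to 7.79) for this gene. For Mki67 the shares from 50 to 60% upward were 69.2, 54.2, 36.2 and 21.4%, with 4.88% in the mature neutrophil-like cells. For Nusap1 they were 31.4, 23.9, 27.2 and 37.5%, with 0 of 164 mature neutrophil-like cells. Top2a had 30.5, 11.1, 4.03 and 3.39%, and Birc5 48.7, 31.4, 14.1 and 5.42%. Among thinned cells Ube2c was thus found in a larger share, and Top2a and Birc5 in a smaller one, toward the highest haemoglobin shares. Thinning sets cells to equal non-haemoglobin UMIs and left out 373 of 963 cells at 80% and above. Before thinning, the UMIs of Ube2c per cell were fewer there than at 50 to 60%. Ube2c was also found where the other members were not: of 198 cells at 80% and above without a UMI of any other member, 129 (65.2%, 58.1 to 71.8) held Ube2c. The share was 55.8% (39.9 to 70.9) at 50 to 60%, 54.8% (44.7 to 64.6) at 60 to 70% and 65.1% at 70 to 80%, with intervals that overlap the last, and 27.3% (21.2 to 34.2) at 10 to 50%. This was not particular to Ube2c. Counted the same way, Mki67 was in 34.4% at 10 to 50%, 60.4% at 50 to 60% and 13.8% at 80% and above. Nusap1 was in 31% at 80% and above, and Top2a, Cenpa and Birc5 were in 2.82, 5.48 and 4.17% there. These counts are not thinned. The cells without members other than Ube2c had medians of 639.5 non-haemoglobin UMIs at 10 to 50% and 971 at 80% and above.

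Of 16 marker lists of other cell types, 11 summed to a higher level at 80% and above than at 50 to 60%, and 5 to a lower one. The neutrophil list (15 of 15 markers detected in both ranges) summed to 1881 at 50 to 60% and 4498 at 80% and above, the monocyte list to 145 and 325, and the mesenchymal list to 562 and 806. The macrophage list summed to 61 and 37.1, the T cell list to 31.9 and 11.8, the endothelial list to 44.1 and 28.4, the megakaryocyte list to 64.8 and 24.5, and the eosinophil list to 3.29 and 0. Ube2c stood at 318 in neutrophil-like cells. The part of RNA from other cells in the levels of Ube2c and the other members was not tested. Ribosomal protein UMIs were 6.09% at 50 to 60% and 2.65% at 80% and above, and median non-haemoglobin UMIs 2128 and 1123. Some members lie over other genes: 7 overlap a gene on the same strand and 14 a gene on the other strand in GENCODE vM21. Nusap1 overlaps Oip5 and Ube2c overlaps Tnnc2, both on the opposite strand, and the use of strand in counting was not given in the sources used here.

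**Figure D4:**
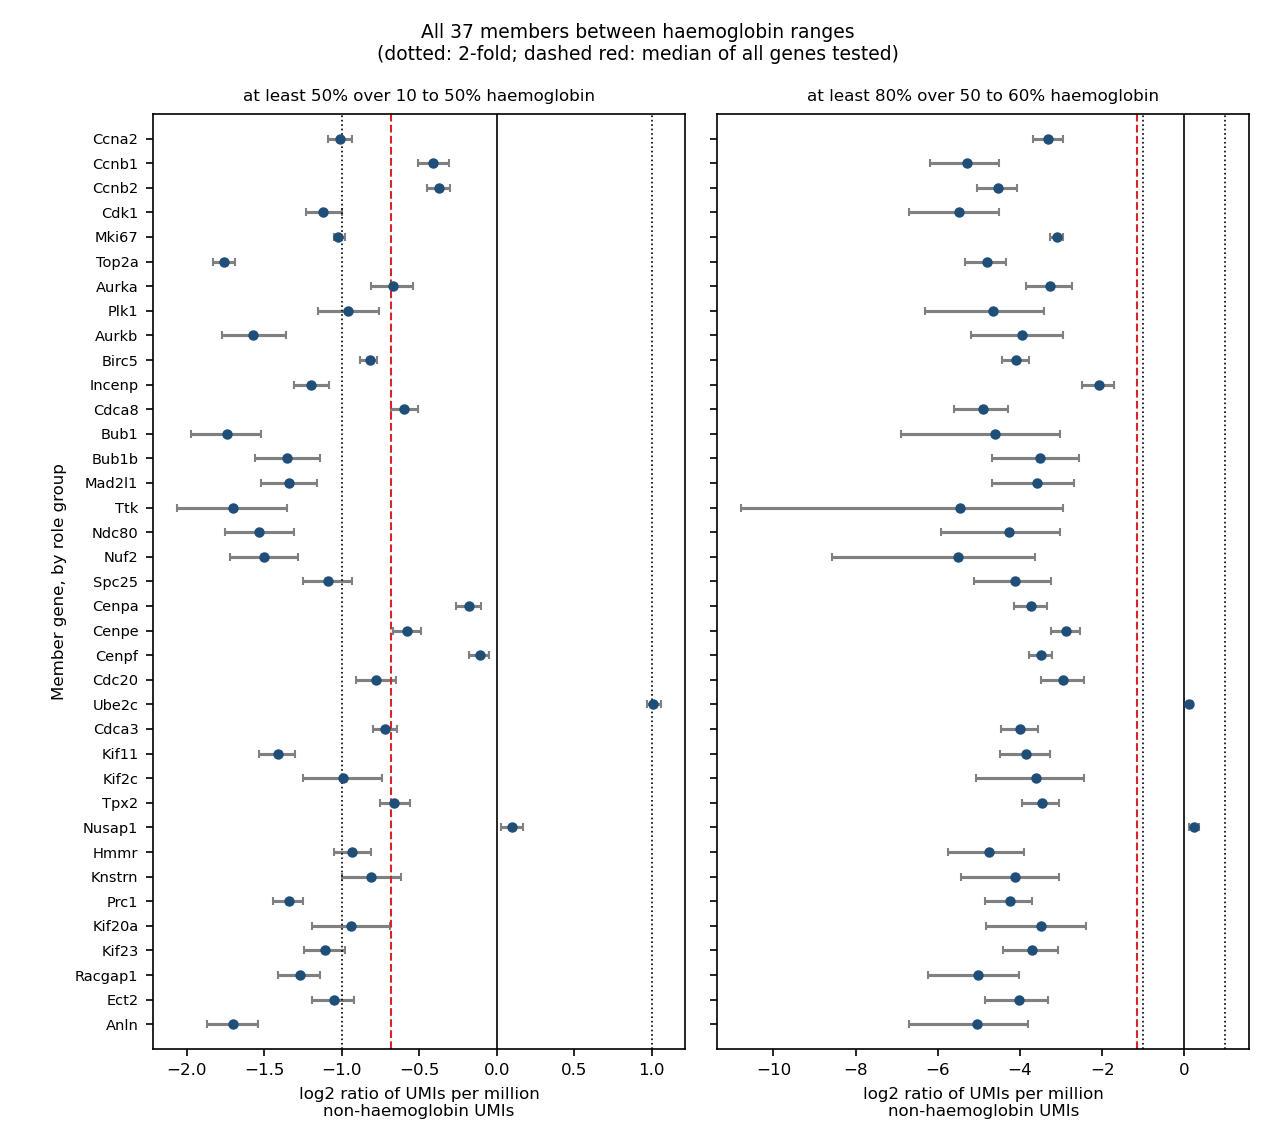
Log2 ratio of each member's level between haemoglobin ranges of erythroid-like cells labelled P180, for at least 50% over 10 to 50% and for at least 80% over 50 to 60%, with 95% intervals of counting error, 2-fold as dotted lines and the median of all genes as a dashed red line. In the second comparison 35 of 37 members lie beyond 2-fold below 0, and Ube2c (0.12) and Nusap1 (0.24) lie just above 0 on this scale but below it (-1.27 and -1.15) in CPM of all UMIs.

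Other lists of cell cycle genes were followed over the same ranges. DNA replication genes were all 24 at least 2-fold lower at 50% and above than at 10 to 50%, with a median log2 ratio of -2.71. Their summed level peaked at 30 to 40% (11187). It was 5172 at 50 to 60%, where the summed level of the members peaked on this scale, and 439 at 80% and above. Rrm2, the ribonucleotide reductase subunit, stood at 1179, 1616 and 359 over the 3 main ranges, and Mcm3, of the replicative helicase, had the lowest ratio of the list (371 to 39.4). Of 65 other mitosis genes tested, 51 were at least 2-fold lower and 2 higher, with a median of -1.26. Cks2, a Cdk-binding protein, stood at 791 and 490 in the last 2 main ranges, Smc4, of condensin, at 772 and 340, and the centromere protein Cenph at 194 and 28.3. The highest ratio was that of Fzr1, the Cdh1 activator that keeps the anaphase-promoting complex on after mitosis, at 62.8, 240 and 719. From 50 to 60% to 80% and above 58 of 63 other mitosis genes were at least 2-fold lower, and 1, Pttg1 (securin, an inhibitor of separase), was higher, at 73.7 and 208. With haemoglobin left out of the total, the summed replication level thus peaked at a smaller haemoglobin share than the summed level of the members.

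Regulators of mitotic genes followed the members, with 11 of 13 at least 2-fold lower in the top main range and a median of -1.86. Rbl1, the p107 pocket protein, stood at 147 and 17.1, and Rb1 at 761 and 321, while E2f4, a repressor E2F, stood at 504 and 622. Among 10 cell cycle exit genes the top main range was at least 2-fold higher for 3 and lower for 1, with a median of 0.70. From 50 to 60% to 80% and above 3 of 9 were higher and 3 lower, with a median of 0.08. Their summed level was 905 under 10% and 4878 at 80% and above, where Gadd45a, a growth arrest gene, gave 3204 of the 6184 UMIs. This difference holds only with haemoglobin left out. Of all UMIs the list gave 778 of 923480 under 10% and 6184 of 7428146 at 80% and above, nearly equal shares. Gadd45a stood at 398 and 1407 in the last 2 main ranges, and Btg2, an antiproliferative gene, at 405, 987 and 1539 over the 3 ranges. In CPM of all UMIs each log2 ratio of the last main step moves by -1.21. That exceeds the list's median of 0.70, the 0.64 of Btg2 and the 0.30 of E2f4, which then lie below 0. The ratio of Gadd45a, 1.82, stays above 0. Cdkn2d, an inhibitor of the kinase Cdk4, stood at 81.4 under 10% and 287 at 10 to 50%. Cdkn2c, of the same inhibitor family, was the one lower, at 138 and 62.7. From 50 to 60% to 80% and above Cdkn2c had a log2 ratio of -3.56 and Btg2 of -0.28.

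Neutrophil-like and erythroid-like cells were the 2 largest lineages labelled P180. In CPM of non-haemoglobin UMIs, 20 of 37 members were at least 2-fold lower in neutrophil-like cells and 0 higher, against 31.9% and 32.9% of 12366 genes, and the median log2 ratio was -1.03 against -0.05 for all genes. This depends on the scale: in CPM of all UMIs 2 members were lower and 10 higher, with a median of 0.41, and per cell 0 were lower and 33 higher, since the median gene moves by 1.44 and 3.07. The share of all genes past 2-fold on these 2 scales is not given here. The counts there thus do not set the members apart from other genes. A change of scale moves all members alike, so their order is the same on each. Mki67 had the lowest ratio (-3.02 in CPM of non-haemoglobin UMIs, -1.59 in CPM of all UMIs and 0.04 per cell), followed by Cenpf at -2.57, Ube2c at -2.21, Cenpe at -2.19 and Nusap1 at -1.93. At the other end Cdk1 stood at 0.19 (0.12 to 0.27), Aurkb at 0.10 (-0.03 to 0.22) and Cdc20 at -0.04 (-0.12 to 0.05). Ratios of members thus spread over more than 3 log2 units between these lineages. In 2 neutrophil-like clusters alone, picked for their high member level, 13 members were at least 2-fold lower, with no share of all genes given here. That choice by itself favours a count under 20, so no conclusion is drawn from it.

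Outside the members, the largest differences of this comparison on the mitosis list were Cdc25b, a phosphatase that activates Cdk1, at 12 in neutrophil-like and 575 in erythroid-like cells, and Cep55, an abscission protein of the midbody, at 24.5 and 0.627. Of 66 other mitosis genes 38 were at least 2-fold lower and 4 higher. Of the regulators, E2f4 stood at 28.5 and 568 and Rb1 at 47.8 and 481, while Tfdp1, the dimer partner of E2F proteins, stood at 230 and 95.1.

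Between the libraries 6 classes with at least 50 cells in both were set side by side, in CPM of all UMIs. The cells of a class differ between libraries, so the leading genes of their clusters are given beside the values. B cell-like cells labelled P180 come from the Vpreb3 and Igll1 precursor cluster and a second cluster, and those labelled E18.5 from clusters led by Ebf1, Bank1 and Cd79a with Ighd among the markers. All 37 members were at least 2-fold higher under the P180 label, against 25.3% of 9912 genes, with a median log2 ratio of 6.0 against 0.16 for all genes. Ube2c stood at 382 and 0.617 CPM (log2 ratio 9.28, 7.91 to 11.15), and Mki67 at 274 and 1.23. The smallest ratios were those of Ndc80, at 50.4 and 9.25, and Cenpa, at 189 and 31. Bub1 and Kif2c had 0 UMIs under the E18.5 label and were at least 87.2-fold and at least 48.1-fold higher, taken against 3 counts over the class.

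Monocyte-like cells showed a difference of like size. All 37 members were at least 2-fold higher under the P180 label, against 26.6% of 8858 genes, and 0 at least 2-fold lower, against 10.1%, with a median log2 ratio of 5.50 against 0.37. Those labelled P180 were 1 cluster led by Lyz2, Tmsb10 and Plac8, and those labelled E18.5 were 2 clusters led by Lyz2 with F13a1 or Cxcl9. Top2a stood at 241 and 0.713 (1 UMI, log2 ratio 8.40, 5.92 to 13.71), and Mki67 at 218 and 3.57. With 0 UMIs under the E18.5 label, Birc5 was at least 154-fold and Ccna2 at least 68.1-fold higher, and 10 members in all had 0 UMIs there. Racgap1 had the smallest ratio, at 133 and 33.5. With 47 UMIs it was also the member seen most often in monocyte-like cells labelled E18.5, followed by Kif23 and Cenpa with 18 each.

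**Figure D5:**
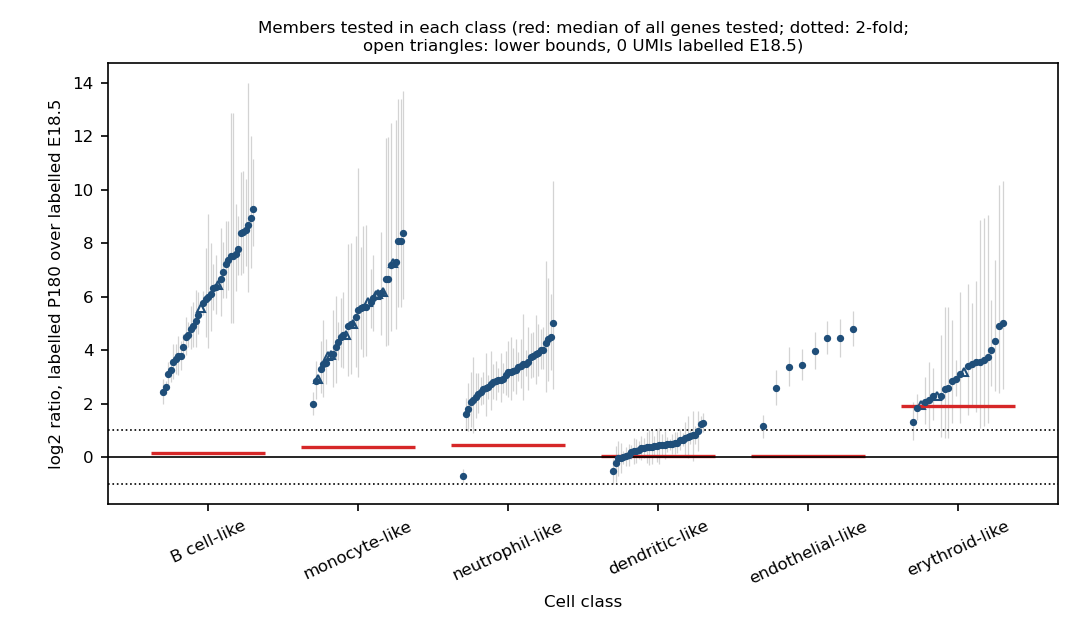
Log2 ratio of each member, labelled P180 over labelled E18.5, in CPM of all UMIs within 6 classes. Points are members, open triangles are lower bounds for members with 0 UMIs under the E18.5 label, and the red mark is the median of all genes tested. All 37 members lie above 2-fold in B cell-like and monocyte-like cells, 1 member (Kif23) lies below 0 in neutrophil-like cells, and the median of the members in dendritic-like cells (0.43) is the lowest of the 6 classes.

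In neutrophil-like cells 36 of 37 members were at least 2-fold higher under the P180 label, against 36.1% of 7353 genes, with a median of 3.19 against 0.44. Cells labelled P180 include the Elane and Ngp clusters of precursors, while those labelled E18.5 are mostly 1 cluster led by S100a9, Retnlg and Il1b, so the makeup of the class differs. Mki67 stood at 198 and 32.3 CPM and Ube2c at 313 and 27.9. Endothelial-like cells labelled P180 were 1 cluster led by Fabp4, Ptprb and Meis2, and those labelled E18.5 were 4 clusters led by Ldb2 (in 2 of them), Stab2 or Rspo3. They had 8 members tested, all at least 2-fold higher, against 4.98% of 7638 genes. None was at least 2-fold lower, against 9.1%. Without the cell of most member UMIs in each library the count higher was 1. Erythroid-like cells labelled E18.5 were 1 cluster led by haemoglobin genes, and those labelled P180 were 11 clusters (1 of them a single cell), 5 led by a haemoglobin gene. There all 24 members tested were at least 2-fold higher, but so were 81.1% of 1598 genes, and this is close to the background.

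Dendritic-like cells had the lowest median ratio of the 6 classes. Those labelled P180 were 1 cluster led by Cd74, Cst3 and H2-Aa, and those labelled E18.5 were the Xcr1 and Clec9a cluster and the Cd209a cluster. Of 36 members tested 2 were at least 2-fold higher under the P180 label, Cdca8 at 98.8 and 41.7 CPM and Cdc20 at 69.1 and 28.3, and 0 were lower, against 3.17% and 7.76% of 9348 genes. The median log2 ratio was 0.43 against 0.04. Ube2c stood at 98.2 and 99, a log2 ratio of -0.01 (-0.27 to 0.24), Nusap1 at 50.5 and 49.9, and Mki67 at 114 and 100. For these 3 genes the intervals of the ratio include 0 and lie within 2-fold. The same genes differed by over 5 log2 units in monocyte-like cells.

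Kif23 (chr9:61915905-61946774, minus strand), singled out after its values had been seen, was the member with the lowest ratio in neutrophil-like cells and the only one below 0. In CPM of all UMIs it stood at 101 under the E18.5 label, with 137 UMIs in 98 of 399 cells and at most 8 in any cell, and at 61.5 under the P180 label (log2 ratio -0.71, -0.96 to -0.44). In the cluster led by S100a9 and Retnlg it gave 125 of 204 member UMIs (61.3%, 54.2 to 68), at 112 CPM of non-haemoglobin UMIs (92.9 to 133) with UMIs in 94 of 379 cells. Mki67 in those cells had 5 UMIs (4.46), Ube2c 3 UMIs, and Racgap1, its partner in centralspindlin, 1 UMI. The next members were Aurka with 20 UMIs and Cenpa with 17. In the 20 cells led by Camp and Ngp, Mki67 stood at 168 and Kif23 at 51.6, the latter from 12 UMIs with 8 in 1 cell. In the Retnlg cluster labelled P180 Kif23 stood at 28, below its level of 62.6 in all neutrophil-like cells of that library. No gene overlaps Kif23 in GENCODE vM21.

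The other cell cycle lists differed between libraries in the same classes. DNA replication genes were at least 2-fold higher under the P180 label for 24 of 24 tested in monocyte-like, 23 of 24 in B cell-like, 22 of 23 in neutrophil-like and 4 of 24 in dendritic-like cells. Other mitosis genes were so for 62 of 63, 60 of 63, 57 of 60 and 4 of 58 in the same order. Cell cycle exit genes were not: 2 of 9 were higher and 3 lower in monocyte-like, 3 of 9 and 0 in B cell-like, and 1 of 9 and 3 in neutrophil-like cells.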

How the data were processed

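Gene counts were deposited by the authors as raw UMI counts per gene and barcode for 2 liver libraries, 1 per age, and per the file headers Cell Ranger 7.1.0 made them. The submitters' processing notes also list mm10, edgeR, Seurat, Trimmomatic and fastp, with no roles. Read filters, barcode calling and the use of strand are not given in the sources used here.

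A barcode was kept if it had 200 or more genes, 500 or more UMIs and less than 25% mitochondrial UMIs. The highest Scrublet scores (scanpy 1.11.5) were left out at 0.8% per 1000 barcodes, which removed 178 barcodes labelled E18.5 and 735 labelled P180. By the threshold Scrublet sets itself it would have been 79 and 0. Each library was clustered alone, without the members and the other cell cycle lists: 2000 variable genes, 30 principal components, 15 neighbours (scikit-learn 1.9.0), Leiden resolution 1 with seed 1 (leidenalg 0.10.2, igraph 0.11.9), 29 and 26 clusters. Names came from 17 marker sets, need at least 3 markers and carry the suffix -like. A cluster stayed unnamed where markers of another class led its top 10 genes.

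UMIs were summed per group (pandas 2.3.3, scipy 1.17.1 and numpy 2.4.6 in Python 3.11.15, figures with matplotlib 3.10.9). Cells are not replicates, so there are no p-values. Intervals are exact Poisson, exact binomial or exact conditional 95% intervals and cover counting error only. A gene is tested, in the sense of being compared, where equal levels would give at least 10 UMIs in the shallower group. Ratios against 0 UMIs use 3 counts over the group. The procedures were checked on simulated data. The genes named in full are, per role, the 2 with the most UMIs and, per haemoglobin comparison, the 3 highest and 3 lowest ratios. Of each other list they are the 2 with the most UMIs and the 2 most extreme ratios. Members, lists and ranges were chosen with earlier results of these data known. Alternatives covered filters, doublets, scaling, thinning, minimum counts, single cells and clusters. The haemoglobin ranges above 50%, the scaling without ribosomal UMIs and the runs on or without single clusters were added after the data had been seen.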

Additional observations from a re-analysis of the deposited data

Results flagged for a closer look

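Barcodes that the filters left out also held member UMIs, and no comparison above uses them. In the 5328 barcodes left out with the E18.5 label the members stood at 233 CPM of all UMIs (223 to 244, exact Poisson, 2051 UMIs), against 534 in the cells kept. In the 924 left out with the P180 label they stood at 3821 CPM (3778 to 3864, 30626 UMIs), against 3621 in the cells kept. There are no control libraries to set these values against. Haemoglobin took 35.7% and 41.1% of the UMIs left out, against 1.13% and 35% of those kept, and its part in these values was not tested.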

How the results depend on the processing

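Of 251 alternatives to the main counts and shares, 208 kept the result and 43 moved it, and of 182 for single genes 118 kept it, 55 moved it and 9 turned its direction. The turned log2 ratios were, for 10 to 50% over under 10% haemoglobin, Mki67 -0.13 and Top2a -0.39 in CPM of all UMIs, and Nusap1 -0.13, Mki67 -0.33 and Top2a -0.59 per cell. For at least 50% over 10 to 50% they were Ube2c -0.19 and Nusap1 -1.10 in CPM of all UMIs, Nusap1 -0.58 per cell, and Nusap1 -0.01 without ribosomal, mitochondrial and Malat1 UMIs. In the first comparison the 2 members higher became 12 without a mitochondrial limit, 1 with all UMIs, 0 per cell and 22 with all barcodes kept, and the 0 lower became 1 per cell. In the second the 1 higher became 0 without a mitochondrial limit, with no doublets left out, with all UMIs, per cell, without ribosomal, mitochondrial and Malat1 UMIs, and at 80% over 50 to 60%. The 19 lower became 4 by median of ratios, 36 with all UMIs, 33 per cell and 35 at 80% over 50 to 60%. For neutrophil-like over erythroid-like cells, all UMIs gave 10 higher and 2 lower. There 2 neutrophil-like clusters gave 13 lower, but they were picked for their high member level, which favours a smaller count. Between libraries the 24 higher in erythroid-like cells became 3 with at least 50 expected UMIs and 13 by median of ratios. The 37 in B cell-like cells became 21 with at least 50 expected UMIs, and 1 member (not 0) was lower in neutrophil-like cells by median of ratios. The 2 in dendritic-like cells became 4 without a mitochondrial limit, 5 with no doublets left out and 1 with cell cycle genes kept for clustering. The 8 in endothelial-like cells became 16 at a 10% mitochondrial limit, 17 with no doublets left out, 37 with no minimum, 1 without the top cell and 1 with cells under 10% haemoglobin only. Except where the setting tests fewer genes or cells by construction, the cause was not tested. No share of all genes past 2-fold is given here for these settings. The share of erythroid-like cells labelled P180 with at least 3 members (54.6%) became 56.3% with no doublets left out, 35.7% thinned to 500 UMIs, 82.4% thinned to 2000, 62% not thinned, 75.6% for at least 2 members, 35% for at least 5 and 51.9% without the cluster of highest level. That of all cells labelled E18.5 (1.81%) became 2.52% at a 10% mitochondrial limit, 1.12%, 2.34% and 6.91% thinned to 500, to 2000 or not thinned, and 2.82% and 1.03% for at least 2 and 5 members. No paired analysis was possible because each label has 1 library. With 1 animal per age, age, animal, library and cell makeup cannot be told apart, and depth limits classes with few member UMIs, such as erythroid-like cells labelled E18.5.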

Other observations

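An unnamed cluster of 83 cells labelled P180, led by Hspe1, Npm1 and Car1, stood at 4461 CPM of non-haemoglobin UMIs for the members together, and 67.5% of its thinned cells held at least 3 members. Npm1 is a nucleolar protein and Car1 a carbonic anhydrase of red cell precursors. The 178 barcodes labelled E18.5 that were left out as doublets stood at 559 CPM, with 14.6% holding at least 3 members before thinning, and the 735 labelled P180 at 6641, with 78.2%.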
